A study of Rattus norvegicus with 24 samples.

Results

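Atf3 and Gap43, a pair of genes long used as markers of injured and regrowing sensory axons, were followed in the dorsal root ganglia (DRG) of 24 rats in 5 groups. They are 2 of the 24613 rows of the deposited count matrix and were picked by Ensembl identifier, ENSRNOG00000003745 for Atf3 and ENSRNOG00000001528 for Gap43. The matrix pairs no identifier with a name, so both names were taken as given with the identifiers and were not checked against an annotation. Both genes passed the filter on low counts in every fit.

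The DRG hold the cell bodies of the sensory neurons, and here they came from levels T11 to L4 on both sides of each animal, below the injury. All rats were female Sprague Dawley adults, and all, the uninjured ones included, were kept in small cages that restrict walking. No SCI (n = 4) had no spinal cord injury, CONT SCI (n = 6) had a contusion of 25 g-cm at T2 and no exercise, and TX SCI (n = 4) had the cord cut through at T2 and no exercise. CONT SCI + SWIM (n = 5) and CONT SCI + SWW (n = 5) had the same contusion and then swimming or shallow water walking on 5 days a week for 10 weeks, starting 2.5 weeks after injury. Tissue was taken 8.5 weeks after injury in TX SCI, 11.5 weeks after it in CONT SCI and at the matching time in No SCI, and 13.5 weeks after it in both exercised groups. Injury type or exercise therefore cannot be told apart from the time of collection, except between CONT SCI and No SCI and between the exercised groups. Counts per library summed to between 16086670 and 38730307. In a principal component analysis of the 500 most variable genes, neither Atf3 nor Gap43 among them, the first component held 59.7% of the variance. The exercised and TX SCI libraries took values from 5.05 to 11.2 on it. CONT SCI and No SCI libraries took values from -13.8 to -9.2.

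Atf3 encodes activating transcription factor 3, a stress-inducible leucine zipper protein of the ATF/CREB family. It is scarce in intact sensory neurons, and it is switched on in the cell body when the peripheral axon is cut. Gap43 encodes growth associated protein 43, a membrane protein of axons and growth cones that binds calmodulin and is phosphorylated by protein kinase C. Its transcript also rises in DRG neurons after a peripheral nerve is cut, whereas injury of the central branch in the spinal cord is known to be a weaker trigger for both.

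Atf3 was highest in TX SCI and nearly equal in CONT SCI and No SCI, with the exercised groups in between. Levels are given as CPM, read counts relative to the library total, after TMM scaling, which corrects that total for differences in composition. In TX SCI the animals stood at 10.88, 9.623, 9.953 and 10.47 CPM. In No SCI they stood at 6.144, 5.534, 6.708 and 5.896 CPM. Every TX SCI animal was thus above every No SCI animal, and both groups were tight. In CONT SCI the lowest animal was at 5.129, the median at 5.958 and the highest at 8.186 CPM, and this highest animal, replicate 6, stood above all No SCI animals. CONT SCI + SWIM held 7.591, 7.706, 6.09, 7.653 and 9.609 CPM, and CONT SCI + SWW held 6.424, 6.501, 7.332, 9.641 and 7.591 CPM. Each exercised group had a single animal near the TX SCI level. Of the 24 animals, the TX SCI samples took ranks 1, 2, 3 and 5, and replicate 4 of CONT SCI + SWW took rank 4.

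**Figure D1:**
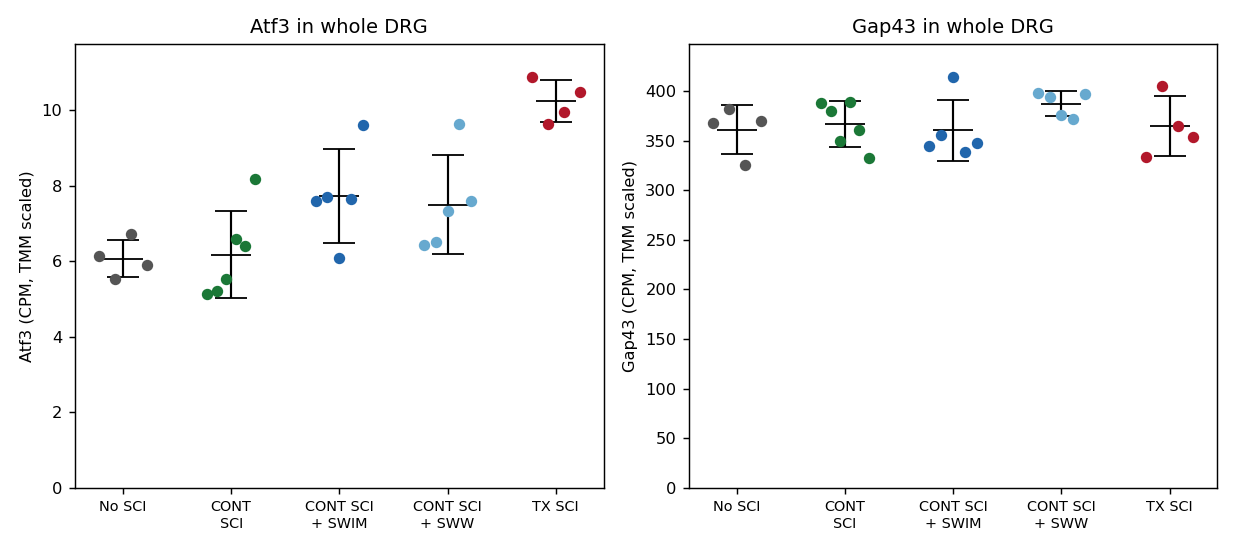
Atf3 (left) and Gap43 (right) in CPM for each animal, by group. Points are animals, horizontal bars the group mean and whiskers 1 SD, and both axes start at 0. TX SCI lies between 9.623 and 10.88 CPM for Atf3, above all No SCI and CONT SCI animals, and the 5 groups overlap for Gap43.

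The first question was whether a complete transection altered these genes against no injury and against the incomplete injury. Atf3 averaged 10.23 ± 0.56 CPM in TX SCI (SD, n = 4) against 6.07 ± 0.49 in No SCI (SD, n = 4), which is 0.76 ± 0.13 higher on the log2 scale (SE, edgeR adjusted p = 0.000407). The fold was 1.69 with a 95% interval of 1.40 to 2.04. In that comparison 34.8% of all genes tested were called at an adjusted p under 0.05, and 32.9% did not overlap between the groups, so a call was common. The size of the Atf3 difference exceeded that of 91.9% of the genes tested. Against CONT SCI, with 6.17 ± 1.16 CPM (SD, n = 6), TX SCI was higher by 0.74 ± 0.115 log2 units (SE, edgeR adjusted p = 0.000132), or 1.67-fold (95% interval 1.41 to 1.98). Here 40.4% of all genes were called and 25.2% did not overlap between the groups. Both calls held with every animal of the groups compared left out in turn. As whole DRG were sequenced, more cells with Atf3 and more Atf3 RNA per cell cannot be told apart.

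TX SCI also exceeded the exercised groups, which were on its side of the first component, but by less and less firmly. Against CONT SCI + SWW the excess was 0.45 ± 0.13 log2 units (SE, edgeR adjusted p = 0.0165), where 22.0% of all genes were called. This call was lost without TX SCI replicate 4 (edgeR adjusted p = 0.0527). Against CONT SCI + SWIM it was 0.40 ± 0.13 (SE, edgeR adjusted p = 0.0459), where 14.4% of genes were called. With all animals kept, the call against CONT SCI + SWIM was lost with RLE scaling (edgeR adjusted p = 0.0508), without a filter (edgeR adjusted p = 0.056) and with at least 10 counts in every sample (edgeR adjusted p = 0.0512). It was kept with DESeq2 (adjusted p = 0.0331). These groups did not overlap, as for 16.1% of all genes, but only just, with 9.623 CPM in the lowest TX SCI animal and 9.609 in the highest CONT SCI + SWIM animal. The call was lost in 8 of 9 fits that each left out 1 animal of these groups, with edgeR adjusted p up to 0.133, and among these fits was kept only without CONT SCI + SWIM replicate 5.

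The mean Atf3 level 11.5 weeks after contusion alone was near that of uninjured animals, while single animals fell on both sides of the uninjured range. CONT SCI against No SCI gave a log2 difference of 0.01 ± 0.12 (SE, edgeR adjusted p = 0.971), and 10.4% of all genes were called. The 95% interval of the difference ran from -15.2% to 20.4%, so a rise of the size seen in TX SCI lies outside it. Of the 6 CONT SCI animals, 3 were below every No SCI animal and 1 was above every one. Replicate 3 was only just below, at 5.523 CPM against 5.534 in No SCI replicate 2. The 95% counting intervals of replicates 1 and 2 reached 5.913 and 6.085 CPM, into that of No SCI replicate 2 (4.714 to 6.454). That of replicate 6 began at 7.237 CPM, below the 7.629 reached by No SCI replicate 3. The SD was 18.8% of the mean after contusion against 8.13% in No SCI. These became 11.8% without CONT SCI replicate 6 and 5.24% without No SCI replicate 3, and no test of the spread was made.

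After exercise the mean Atf3 level was above that of CONT SCI by a margin that did not pass the edgeR test. In CONT SCI + SWIM it averaged 7.73 ± 1.25 CPM (SD, n = 5), a log2 difference from CONT SCI of 0.33 ± 0.13 (SE, edgeR adjusted p = 0.0609). In CONT SCI + SWW it averaged 7.50 ± 1.30 CPM (SD, n = 5), with a log2 difference from CONT SCI of 0.27 ± 0.13 (SE, edgeR adjusted p = 0.096). Before adjustment the edgeR p was 0.0207 for CONT SCI + SWIM and 0.0479 for CONT SCI + SWW. The 95% intervals ran from 0.0548 to 0.595 and from 0.00271 to 0.541 log2 units. All 5 animals of each exercised group were above the CONT SCI median, and in these comparisons 32.1% and 43.0% of all genes were called. Without CONT SCI replicate 6, its highest animal, both differences passed, with edgeR adjusted p = 0.0122 for CONT SCI + SWIM and 0.0193 for CONT SCI + SWW. In the other direction, without the animal highest in Atf3 of each exercised group the difference shrank, to 0.24 for swimming without replicate 5 (edgeR adjusted p = 0.192) and to 0.17 for walking without replicate 4 (edgeR adjusted p = 0.311). The swimming difference also passed without CONT SCI + SWIM replicate 3 (edgeR adjusted p = 0.0258). With all animals it passed with RLE scaling (edgeR adjusted p = 0.047), with DESeq2 (adjusted p = 0.0353), with a stricter filter of at least 10 counts in every sample (edgeR adjusted p = 0.046) and with all 24 samples in the fit (edgeR adjusted p = 0.0413). It did not pass without a filter (edgeR adjusted p = 0.0543). Against No SCI the log2 differences were 0.35 for CONT SCI + SWIM (edgeR adjusted p = 0.0799) and 0.29 for CONT SCI + SWW (edgeR adjusted p = 0.154), where 28.1% and 22.9% of genes were called. The unadjusted edgeR p was 0.0261 for the first of these and 0.0547 for the second. The first difference passed without CONT SCI + SWIM replicate 3 (edgeR adjusted p = 0.0413). The second fell to 0.19 without CONT SCI + SWW replicate 4 (edgeR adjusted p = 0.369). The forms of exercise gave a log2 difference of 0.05 ± 0.14 between them (SE, edgeR adjusted p = 0.867), with a 95% interval from -0.23 to 0.34 and 2.99% of all genes called. By mean level the order was TX SCI, CONT SCI + SWIM, CONT SCI + SWW, CONT SCI and No SCI. Of the neighbours in it, TX SCI and CONT SCI + SWIM differed at the threshold and the other neighbours did not.

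Gap43 lay far up the range of expression, with a mean CPM above that of 97.5% of the genes tested, and passed the test in 0 of 10 comparisons, by edgeR as by DESeq2, and had an unadjusted p under 0.05 in 0 of 10 by edgeR. In No SCI its animals stood at 368.4, 382.1, 325.1 and 369.6 CPM. In TX SCI they stood at 333.6, 405.7, 365.1 and 354 CPM. These ranges lie over each other, with TX SCI holding both a higher and a lower animal than most of No SCI. CONT SCI ran from 332.4 through a median of 370.8 to 389.6 CPM. CONT SCI + SWIM held 344.5, 356.3, 414.5, 338.5 and 348.2 CPM, and CONT SCI + SWW held 397.8, 394, 376.5, 371.9 and 397.7 CPM. All 5 groups overlapped, and the whole series spanned only 1.27-fold between its lowest and highest animal, against 2.12-fold for Atf3.

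The Gap43 means of the groups without exercise were within a few percent of each other, and the intervals show how small a difference the data allow. TX SCI, at 364.6 ± 30.4 CPM (SD, n = 4), differed from No SCI, at 361.3 ± 24.9 (SD, n = 4), by 0.02 ± 0.07 log2 units (SE, edgeR adjusted p = 0.845). The 95% interval of that change runs from -8.5% to 12.5%. CONT SCI, at 366.8 ± 23.0 CPM (SD, n = 6), differed from No SCI by 0.02 ± 0.06 log2 units (SE, edgeR adjusted p = 0.94), with an interval from -8.02% to 11.1%. The fitted difference of TX SCI from CONT SCI was 0.01 log2 units (edgeR adjusted p = 0.955), with an interval from -8.65% to 10.3%, although its mean CPM was the lower. A change in Gap43 as large as the 1.67-fold difference of Atf3 is outside all these intervals.

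Exercise left Gap43 without a called difference too. CONT SCI + SWW had the highest mean, 387.6 ± 12.4 CPM (SD, n = 5). It was 5.48% above CONT SCI (95% interval -2.82% to 14.5%, edgeR adjusted p = 0.293) and 7.09% above No SCI (-2.22% to 17.3%, edgeR adjusted p = 0.285), the smallest adjusted p of the 10. On the log2 scale the first difference went from 0.08 to 0.05 without CONT SCI replicate 6 (edgeR adjusted p = 0.512), and the second from 0.10 to 0.05 without No SCI replicate 3 (edgeR adjusted p = 0.635). CONT SCI + SWIM, at 360.4 ± 30.9 CPM (SD, n = 5), differed from CONT SCI by -2.06% (95% interval -9.78% to 6.32%, edgeR adjusted p = 0.729). Against No SCI it had an edgeR adjusted p of 0.938. Between the exercised groups Gap43 differed by -0.11 ± 0.06 log2 units, lower after swimming (SE, edgeR adjusted p = 0.342). Of the 5 CONT SCI + SWIM animals, 4 were below every CONT SCI + SWW animal and replicate 3 was above every one. Against TX SCI, the log2 differences were 0.02 for TX SCI over CONT SCI + SWIM (edgeR adjusted p = 0.896) and -0.09 for TX SCI over CONT SCI + SWW (edgeR adjusted p = 0.351). The latter was -0.04 without TX SCI replicate 1 (edgeR adjusted p = 0.703) and -0.14 without TX SCI replicate 2 (edgeR adjusted p = 0.148). In order of the mean the groups were CONT SCI + SWW, CONT SCI, TX SCI, No SCI and CONT SCI + SWIM, and no pair of neighbours differed beyond its spread.

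**Figure D2:**
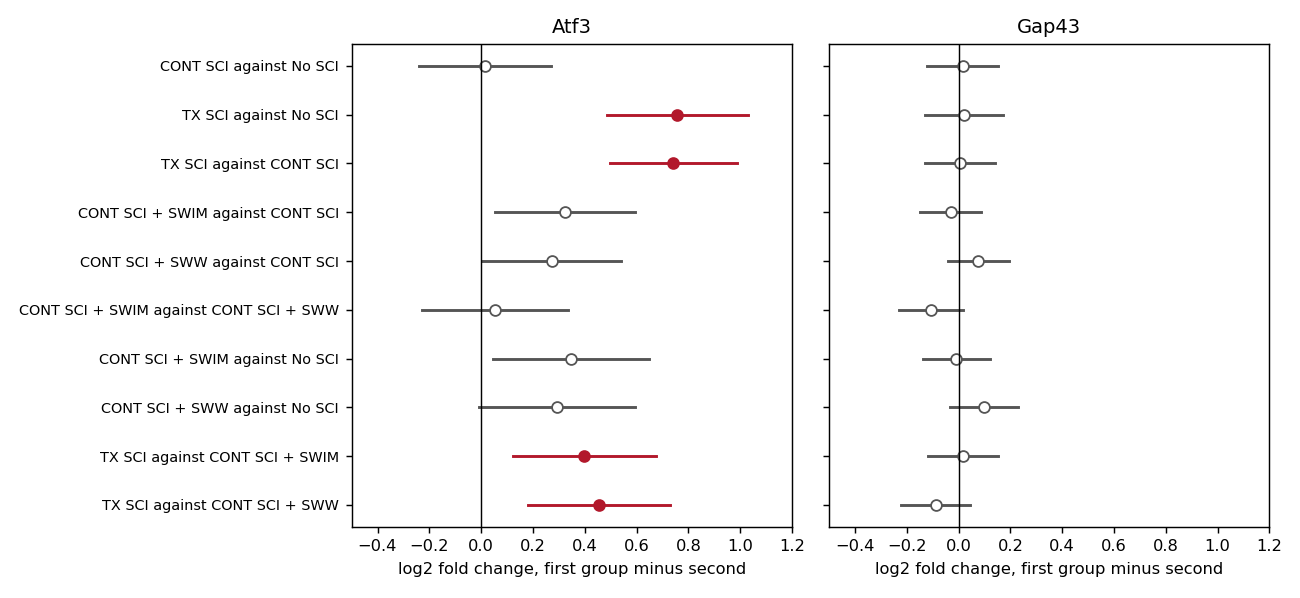
Log2 fold change with 95% interval for Atf3 (left) and Gap43 (right) in 10 comparisons, from edgeR's quasi-likelihood test, first-named group minus second. Filled red points passed an adjusted p of 0.05 over all genes. The 4 red points are the TX SCI comparisons of Atf3, and every interval of Gap43 holds 0. Intervals are not adjusted for the number of genes. For Atf3, those of CONT SCI + SWIM against CONT SCI and No SCI, and of CONT SCI + SWW against CONT SCI, lie above 0 without passing.

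Since both genes were counted in the same libraries, their ratio needs no scaling between libraries. Comparing ratios shows unequal change of the genes and not which of them changed. Atf3 counts per 1000 Gap43 counts were 32.62, 23.72, 27.26 and 29.59 in the TX SCI animals and 16.68, 14.48, 20.64 and 15.95 in the No SCI animals. These did not overlap, and the ratio was 1.67-fold higher in TX SCI (exact permutation test, two-sided, p = 0.0286, and 0.0952 after Benjamini-Hochberg adjustment over 10 comparisons). With 4 animals in each group no smaller p was possible. Against CONT SCI, with a median of 16.35 and a range from 13.23 to 24.62, the ratio was 1.69-fold higher in TX SCI (exact permutation test, two-sided, p = 0.0143, adjusted 0.0952). CONT SCI replicate 6 reached into the TX SCI range. Against CONT SCI + SWW it was 1.47-fold higher (exact permutation test, two-sided, p = 0.0238, adjusted 0.0952) and against CONT SCI + SWIM 1.32-fold (p = 0.0556, adjusted 0.139). CONT SCI and No SCI differed by 0.99-fold (exact permutation test, two-sided, p = 0.948, adjusted 0.948). No ratio comparison passed after adjustment.

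**Figure D3:**
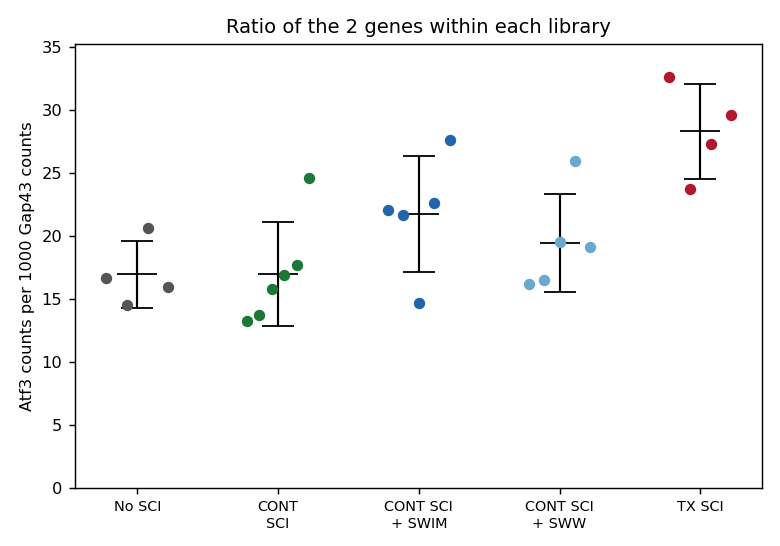
Atf3 counts per 1000 Gap43 counts in each library, by group. Points are animals, horizontal bars the mean and whiskers 1 SD, and the axis starts at 0. TX SCI lies between 23.72 and 32.62 and No SCI between 14.48 and 20.64.

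In most groups the animal at an extreme of Atf3 stood at the opposite extreme of Gap43. In 4 of the 5 groups, all but CONT SCI + SWIM, the animal with the most Atf3 had the least Gap43. These were No SCI replicate 3, CONT SCI replicate 6, CONT SCI + SWW replicate 4 and TX SCI replicate 1. In 4 of the 5 groups, all but CONT SCI, the animal with the least Atf3 had the most Gap43. The count was made after the values were seen. Of the 15246 genes tested besides Atf3, 232 (1.52%), Gap43 included, were lowest in the Atf3-highest animal in 4 or more groups, and 11 met both conditions. No test was made of this order. A correlation was computed only in the group with the most animals, CONT SCI (n = 6), and none was computed in the other groups. It gave Pearson's r = -0.629 on log2 CPM (exact permutation test, two-sided, p = 0.225) and Spearman's rho = -0.371 (exact permutation, p = 0.497), and 0.45 and 0.497 after Benjamini-Hochberg adjustment over both. Without replicates 6 and 1, the animals farthest from the Atf3 median, r was 0.238. Leaving out replicate 6 alone took r to -0.059 and leaving out replicate 1 alone to -0.533, so the relation in this group rests on replicate 6. Without replicate 4 it was -0.853, and no version passed the test.

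**Figure D4:**
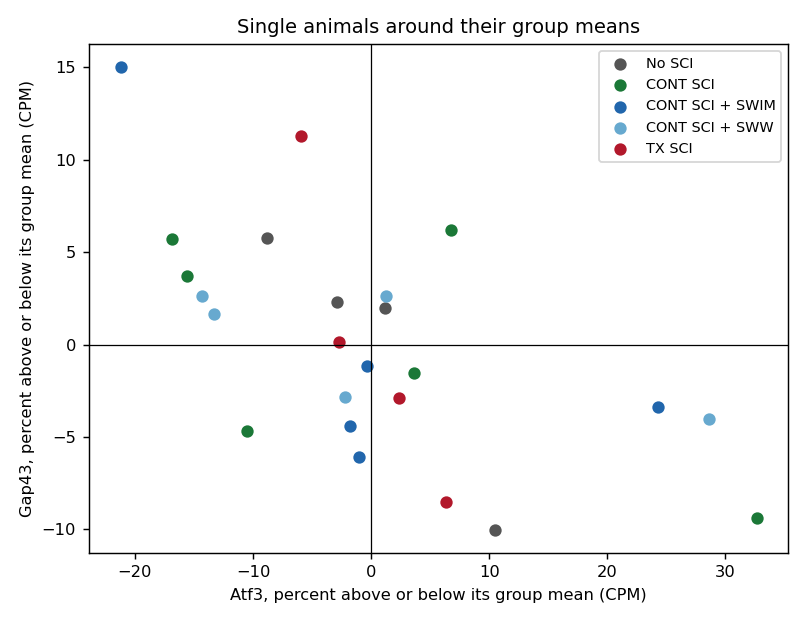
Deviation of each animal from its group mean, in percent of that mean, for Atf3 (horizontal) and Gap43 (vertical), coloured by group. The points at the far right, such as CONT SCI replicate 6 at 8.186 CPM of Atf3 and 332.4 CPM of Gap43, lie below the horizontal line, and CONT SCI + SWIM replicate 3, with 6.09 and 414.5 CPM, lies at the upper left.

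Depth bounds the precision differently for each gene. Atf3 had 122 to 390 counts per library, so counting alone gives an error of 5.06% to 9.05% of a single value. Gap43 had 5779 to 14360 counts, which gives 0.834% to 1.32%. In TX SCI the animals varied by 5.43% in Atf3, close to the 5.90% expected from counting, while the 18.8% of CONT SCI exceeded the 7.11% expected there. For Gap43 the spread between animals was 3.20% to 8.58% of the mean in the 5 groups, above counting error in each. The highest of these, in CONT SCI + SWIM, fell to 2.15% without replicate 3. That of TX SCI went from 8.32% to 4.55% without replicate 2, and that of No SCI from 6.90% to 2.03% without replicate 3. edgeR's biological coefficient of variation, the spread left after counting error, was 12.8% for Atf3 and 7.02% for Gap43, against a median of 9.31% over the 15247 genes tested in all samples. Among genes within 1.5-fold of the same level the median was 10.4% for Atf3 and 7.21% for Gap43, so the spread of Gap43 was close to that of genes as highly expressed. The counting errors given here treat each read as an independent molecule. Reads are not independent after amplification, so these errors may be too low.

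For each member, 15246 genes were ranked by Pearson's r of log2 CPM across the 24 animals, and only those with the highest r are named. The r values are a description without a test, since all values share libraries and groups. How high the top r among so many genes would be by chance was not tested, so close following is not shown. For Atf3 the closest were ENSRNOG00000021938 (r = 0.86) and ENSRNOG00000011821 (r = 0.859). In group means the former held 6.38 CPM in No SCI, 6.34 in CONT SCI, 7.23 and 7.72 in the exercised groups and 9.63 in TX SCI. The latter rose stepwise from 37.9 CPM in No SCI and 39.5 in CONT SCI. It held 47.7 and 51.6 CPM in the exercised groups and 74.6 in TX SCI. For Gap43 the closest were ENSRNOG00000000961 (r = 0.742) and ENSRNOG00000050224 (r = 0.73), whose group means ran from 26.6 to 29.2 CPM and from 36.2 to 40.5 CPM, beside 360.4 to 387.6 CPM for Gap43 itself. These genes have no name here, as the matrix gives identifiers only.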

How the data were processed

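Whole DRG of 24 rats, 1 library each, were sequenced by the authors as stranded polyA libraries, aligned to Rn6 with STAR and counted per Ensembl gene with HTSeq 0.10.0 using strand, without mitochondrial genes. The deposited values are raw read counts. Reads shared by near-identical or overlapping genes could be lost, and this was not examined. All columns were matched to animals by group and replicate number, and no group pair held the same library again (chi-square per gene 2.98 to 55.2 over 47 pairs).

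Counts were analysed with R 4.3.3 and edgeR 4.0.16. The filterByExpr function removed low genes (count minimum 10, total minimum 15), TMM factors were computed, and glmQLFTest p-values were adjusted by Benjamini-Hochberg over all genes tested, with a threshold of 0.05. No SCI, CONT SCI and TX SCI shared a fit (14 samples), No SCI and the contused groups another (20 samples), and TX SCI against exercised groups used all 24. Standard errors are the log2 fold change over the root of F, and CPM use effective library sizes over all samples. Alternatives were RLE scaling, DESeq2 1.42.0, other filters, other samples, the replicate number as a block and each animal left out. The spread with each animal left out and the ratio of both genes were added after the data were seen, the ratio being tested by exact permutation in Python 3.11.15. The scripts were tested on simulated counts.

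The members and lists were chosen with earlier results of these data known. Named genes were the members and the 2 genes most correlated with each. The annotation table at hand (GRCr8, 47357 genes) carried 0 Ensembl identifiers and matched 0 rows, so the planned lists of injury response, ATF and AP-1, stress response, Gap43-related and cell type marker genes, and genome positions, were not analysed here.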

Additional observations from a re-analysis of the deposited data

Results flagged for a closer look

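Gap43 in CONT SCI + SWIM replicate 3 stood at 414.5 CPM, against 338.5 to 356.3 CPM in the other 4 animals of that group, a gap of 0.766 of the group's range where the critical value is 0.71. The same animal had the least Atf3 of its group, 6.09 CPM against 7.591 to 9.609. Of 15 sets of values examined in this way, 1 stood apart, and chance gives about 0.75. Without it, the Gap43 difference of the swimming from the walking group was -0.16 on the log2 scale (edgeR adjusted p = 0.188) in place of -0.11.

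The effects of the injuries on Atf3 differed from each other. TX SCI against No SCI and CONT SCI against No SCI differed by 0.74 on the log2 scale, which is the same comparison as TX SCI against CONT SCI (edgeR adjusted p = 0.000132, higher in 4 of 4 TX SCI animals than in any CONT SCI animal). In that comparison 40.4% of all genes tested were called and 25.2% did not overlap between the groups. TX SCI was also collected earlier, and time and injury cannot be told apart here.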

How the results depend on the processing

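Atf3 in TX SCI against No SCI and against CONT SCI kept its direction and an adjusted p under 0.05 in every edgeR and DESeq2 alternative. Only the ratio to Gap43 did not pass, with log2 differences of 0.74 and 0.76 and an adjusted p of 0.0952 by exact permutation for both, where the first already had the smallest unadjusted p that 4 against 4 animals allow. The ratio gave 0.40 for TX SCI against CONT SCI + SWIM and 0.55 against CONT SCI + SWW. TX SCI against CONT SCI + SWIM also missed the threshold with RLE scaling (log2 difference 0.39), no filter (0.40) and at least 10 counts in every sample (0.38). It passed with DESeq2 (adjusted p = 0.0331), the replicate block (edgeR adjusted p = 0.0128) and only the 2 groups in the fit (edgeR adjusted p = 0.0382), and leaving out animals gave 0.31 to 0.49. For TX SCI against CONT SCI + SWW leaving out animals gave 0.40 to 0.55. CONT SCI + SWIM against CONT SCI passed with RLE scaling and DESeq2 (0.34 each), at least 10 counts (0.34), all 24 samples in the fit (0.33) and the replicate block (0.42), and leaving out animals gave 0.24 to 0.42. CONT SCI + SWW against CONT SCI passed with the replicate block (0.37), and leaving out animals gave 0.17 to 0.37. Against No SCI the range was 0.26 to 0.42 for CONT SCI + SWIM and 0.19 to 0.35 for CONT SCI + SWW. The cause of these shifts was not tested beyond the animals named. The replicate numbers belong to different animals, and same-numbered animals deviated together with r from -0.24 to 0.282 over 43 pairs, so the block is no pairing of the design.

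Gap43 passed under none of its 156 alternatives, and 20 of these, in 6 comparisons, changed the sign of a difference of at most 0.0479. For Atf3, 8 of 166 changed the sign of a difference that did not pass. The genes called between the swimming and walking groups numbered 454, against 811 by DESeq2, 251 with the block and 123 to 811 with animals left out. Without No SCI replicate 2, 1041 genes were called between CONT SCI and No SCI in place of 1578, and without TX SCI replicate 4 the TX SCI calls fell to 1333 against CONT SCI + SWIM (2193 before) and 2026 against CONT SCI + SWW (3359 before). Depth limits Atf3 more than Gap43.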
